A study of Bos taurus with 24 samples.

Results

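The IL1 family and its receptors were described in fibroblasts cultured from bovine skin, where these cells make the collagen matrix of the dermis. The 7 members were taken by gene symbol, the ligands IL1A, IL1B and IL33, the receptor antagonist IL1RN, and the receptor chains IL1R1, IL1RAP and IL1RL1. Each symbol stood on 1 row of the tables, so the set was 7 of 59846 rows, of which 27550 carried a gene symbol. Taking rows by symbol used no measured value here, but the list of members was drawn up with earlier results of these data known.

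Cultures came from 4 Holstein and 4 Angus heifers of about the same age, a dairy and a beef breed. Each culture was sampled at 0 h (control conditions) and at 2 h and 8 h after 100 ng/ml of LPS (lipopolysaccharide, from the outer membrane of Gram-negative bacteria), which gave 6 groups of 4 libraries. Lysates of duplicate wells were pooled, so a library stands for 1 animal at 1 hour, and the libraries of an animal share a culture grown from frozen cells. The 2 h and 8 h groups were compared with the same 0 h libraries, and no untreated culture was kept to 2 h or 8 h, so LPS and time in culture cannot be told apart.

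IL1A and IL1B are the classical agonist ligands of the family and signal through IL1R1. IL1RN binds IL1R1 without signalling and so competes with both. IL33 is held in the nucleus of barrier and stromal cells and signals through IL1RL1, known as ST2, and each of these receptors needs IL1RAP, the shared accessory chain, to recruit the adaptor MYD88. The IL1RL1 gene also gives a short secreted product that binds IL33 as a decoy. In the skin, fibroblasts are known as cells that both respond to IL1 and release it.

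Total counts were 51014538 to 104406293 per library, which were divided by library size after TMM scaling (trimmed mean of M values) and multiplied by 1000000, a level called CPM here, so that 1 CPM stood for 51 to 104.4 counts before that scaling. A floor of 3 counts corresponded to 0.029 to 0.059 CPM per library and covers counting error only. Counting of reads stood apart in 4 libraries. In Angus 4, Holstein 2 and Holstein 4 at 0 h and Angus 3 at 2 h, each count of COL1A1 went with 66.2 to 67.1 covered bases, whereas the 20 remaining libraries had 111.8 to 119. Calls that ended without these 4 libraries are named beside the result. All 10 fibroblast markers were at or above 1 CPM on average. Of 9 leukocyte markers, 8 were below 1 CPM on average, the exception being CD68 (1.35 to 4.34 CPM), and all 5 mast cell markers were below 1 CPM on average. Of 10 keratinocyte markers, 6 were below 1 CPM on average, and KRT1 was at 0 in all 24 libraries. The 4 others were DSC3 (0.493 to 141 CPM), KRT5 (0 to 10.2 CPM), KRT17 (0 to 9.69 CPM) and TP63 (0.666 to 1.48 CPM).

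On the bovine build UMD v3.1, 5 of the 7 members lay on chromosome 11. IL1A was at chr11:46349422-46360402 and IL1B at chr11:46410277-46418785, both on the reverse strand, and IL1RN at chr11:46699166-46706152 on the forward strand. IL1R1 was at chr11:6848042-6931607 and IL1RL1 at chr11:7122686-7141605, both on the forward strand. IL33 was at chr8:38724602-38792047 and IL1RAP at chr1:77223041-77343645, both on the reverse strand. The rows span whole genes with introns, so exons and untranslated regions were not separated and levels were not compared between genes. The IL33 row overlaps LOC781462 and an interval without a symbol, and its coverage was 230.1 to 458.6 covered bases per count against 65.6 to 88.6 for the 5 other members with enough counts to judge, so the IL33 level is less certain.

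The receptor chains stayed above 1 CPM and the ligands were mostly below it. IL1R1, IL1RAP and IL1RL1 were above 1 CPM in 24 of 24 libraries, from 30.3 to 62.1 CPM for IL1R1, 2.43 to 5.76 CPM for IL1RAP and 3.53 to 38.5 CPM for IL1RL1. IL1B was below 1 CPM in every library, with 220 counts in all 24 together. IL1RN reached 1 CPM in 1 library and IL33 in 5, and both had means below 1 CPM in all 6 groups. IL1A was below 1 CPM in all 8 libraries at 0 h, and reached it in 5 of 8 at 2 h and 6 of 8 at 8 h. In all, 20 of 42 combinations of member and group had a mean below 1 CPM.

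**Figure D1:**
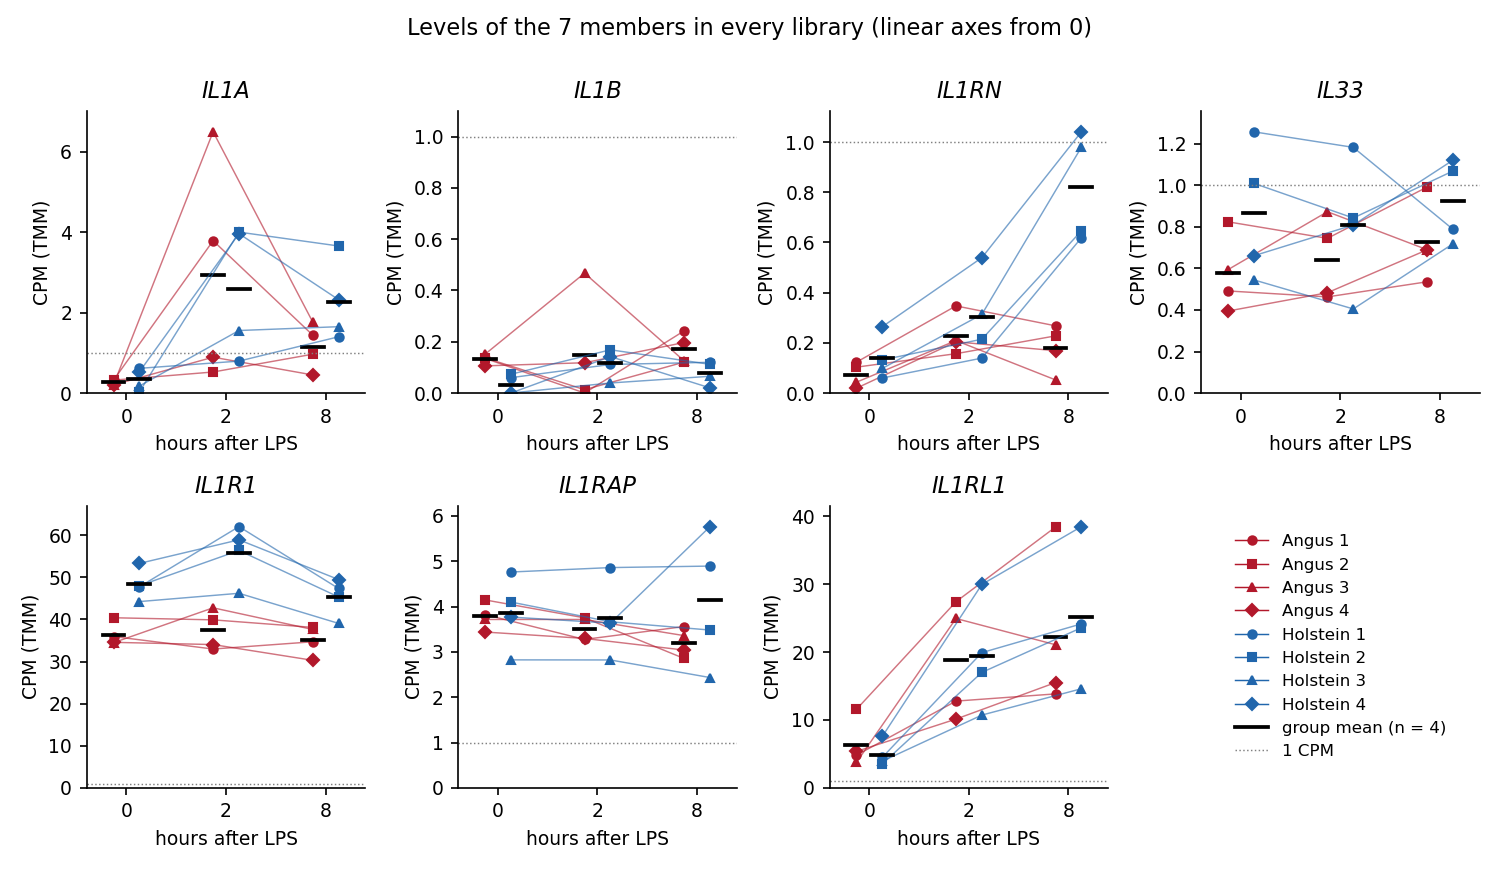
TMM-scaled CPM (linear axes from 0, scaled for each gene) of each of the 7 members in all 24 libraries, by hour after LPS at equal spacing, with points joined for each animal, a bar for the group mean, and Angus (red) and Holstein (blue) side by side. IL1RL1 is higher at 2 h and 8 h than at 0 h in every animal, IL1R1 sits higher in the 4 Holstein than in the 4 Angus cultures at each hour, and IL1B, IL1RN and IL33 have group means below the dotted line at 1 CPM.

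IL1RL1 rose after LPS in both breeds. In Angus cultures 1 to 4, IL1RL1 stood at 4.81, 11.6, 3.74 and 5.36 CPM at 0 h, at 12.8, 27.4, 24.95 and 10.1 CPM at 2 h, and at 13.8, 38.4, 21.1 and 15.5 CPM at 8 h. In Holstein cultures 1 to 4 it stood at 4.49, 3.53, 3.92 and 7.58 CPM at 0 h, at 19.9, 17.0, 10.7 and 30.0 CPM at 2 h, and at 24.2, 23.6, 14.6 and 38.5 CPM at 8 h. All Holstein values after LPS lay above all Holstein values at 0 h, whereas in Angus the 0 h value of animal 2 (11.6 CPM) lay above the 2 h value of animal 4 (10.1 CPM). Each animal was higher than its own 0 h level at both hours, by 1.89 to 6.68-fold at 2 h and by 2.88 to 6.69-fold at 8 h.

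With the breeds combined, edgeR's likelihood-ratio test gave a 3.39-fold increase of IL1RL1 at 2 h (95% interval 2.296 to 5.01, log2 1.76, SE 0.29, FDR = 6.78e-08, 8 against 8 libraries). At 8 h the increase was 4.21-fold (2.87 to 6.17, log2 2.07, SE 0.28, FDR = 2.68e-10). IL1RL1 was the only member that was differentially expressed at either hour with the breeds combined, where a gene counts as such at a false discovery rate (FDR) < 0.05 over all rows tested, a fold change of at least 2 and an average above 1 CPM. Over all rows tested, 2.82% were differentially expressed at 2 h and 1.42% at 8 h. Only 3 members passed the CPM filter in these comparisons (at least 1 CPM in 50% of the libraries compared, on counts not yet TMM-scaled), so 4 of the 7 could not be called. IL1A was among these 4. The paper lists IL1A as induced at both hours with the breeds combined, and without the CPM filter it met the same criteria at both hours here. Each library pools many cells, so fewer or more cells of a type and less or more RNA per cell cannot be told apart in these results. The summed level of the 9 leukocyte markers was 3.02 to 5.34 CPM at 0 h and 3.51 to 6.37 CPM after LPS, and was higher than at 0 h in 8 of 8 animals at both hours. Most of it was CD68, a lysosomal protein of macrophages, which rose 1.62-fold at 2 h over both breeds (FDR = 0.00257). In Holstein at 2 h CD68 was differentially expressed (2.10-fold, FDR = 3.56e-05). CD68 was the 1 leukocyte marker that passed the CPM filter in these comparisons, so the others were not tested. Over all hours PTPRC, which marks leukocytes in general, ranged from 0.274 to 0.709 CPM. CD14 ranged from 0.0644 to 0.983 CPM, LYZ from 0.0867 to 0.969 CPM and CSF1R from 0.0586 to 0.683 CPM. Among the fibroblast markers, COL1A1 was 0.391-fold at 8 h over both breeds (FDR = 0.0031). Counting of COL1A1 itself stood apart in 3 of the libraries at 0 h and in none at 8 h, and its fold without those libraries is not given here. Summed levels of the fibroblast and of the keratinocyte markers were higher at 8 h than at 0 h in 0 of 8 animals. The endothelial sum was higher in 6 of 8 animals at 2 h and in 8 of 8 at 8 h. The part of these markers in the LPS results was not tested.

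Within Holstein, IL1RL1 rose 3.97-fold at 2 h (2.51 to 6.27, FDR = 3.43e-07) and 5.18-fold at 8 h (3.35 to 8.03, FDR = 1.89e-10), with 4 animals per group. Within Angus it rose 2.95-fold at 2 h (1.65 to 5.29, FDR = 0.00479) and 3.48-fold at 8 h (1.957 to 6.20, FDR = 0.00281). The Angus call at 2 h was lost without animal 3 (log2 1.21, FDR = 0.0875) and without the libraries of other counting (log2 1.32, FDR = 0.0820), and that at 8 h with the quasi-likelihood F test (FDR = 0.0839). In the Holstein comparisons 3.17% of rows were differentially expressed at 2 h and 2.52% at 8 h, and in Angus 2.99% and 0.863%.

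The increase of IL1RL1 was not shown to differ between the breeds. The breed by LPS interaction was 0.44 on the log2 scale at 2 h (SE 0.58, 95% interval of the ratio of folds 0.613 to 2.99, FDR = 1.0) and 0.56 at 8 h (SE 0.57, interval 0.681 to 3.18, FDR = 1.0). With the animal as a block the interaction was 0.41 at 2 h (SE 0.34, interval 0.830 to 2.12, FDR = 0.712). At 8 h it was 0.53 with the block (SE 0.23, FDR = 0.286), where the interval of 1.05 to 1.98 lay above 1 and the FDR threshold was not passed. Levels of IL1RL1 overlapped between the breeds at every hour, and Holstein over Angus was 0.766-fold at 0 h (0.454 to 1.30), 1.03-fold at 2 h (0.606 to 1.74) and 1.14-fold at 8 h (0.684 to 1.89). Between 2 h and 8 h, IL1RL1 was higher at 8 h in 7 of 8 animals, Angus 3 being the exception. That difference was 1.24-fold (0.852 to 1.82, FDR = 0.478), and no member was differentially expressed there, against 2.76% of rows. With the animal as a block it passed the FDR threshold while staying below 2-fold (log2 0.32, SE 0.09, FDR = 0.00105), as did 24.7% of rows with higher levels at 8 h.

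IL1A rose after LPS from levels below 1 CPM at 0 h. Its level at 0 h was 0.320, 0.321, 0.205 and 0.202 CPM in Angus 1 to 4 and 0.614, 0.0293, 0.174 and 0.529 CPM in Holstein 1 to 4, the lowest of these resting on 2 counts. At 2 h it was 3.79, 0.523, 6.49 and 0.891 CPM in Angus and 0.794, 4.00, 1.55 and 3.96 CPM in Holstein. At 8 h it was 1.44, 0.965, 1.77 and 0.450 CPM in Angus and 1.40, 3.66, 1.65 and 2.32 CPM in Holstein. Within each breed the values after LPS lay above those at 0 h, in 8 of 8 animals at both hours, and the spread between animals was widest at 2 h. The Angus mean was 2.92 ± 2.79 CPM at 2 h and 1.16 ± 0.575 CPM at 8 h (SD, n = 4), and the Holstein means were 2.58 ± 1.65 and 2.26 ± 1.01 CPM, differences that did not pass the test over both breeds (8 h against 2 h 0.624-fold, 0.322 to 1.21, FDR = 0.353).

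IL1A passed the CPM filter in 4 of the 12 comparisons. In Holstein at 8 h it was 6.76-fold higher than at 0 h (2.77 to 16.5, FDR = 0.00111) and was the other differentially expressed member there beside IL1RL1. It entered that comparison through its 4 libraries at 8 h alone, none at 0 h being at 1 CPM, so the count of 2 members rests partly on the filter. When rows with at least 10 counts in all were tested without the CPM filter, IL1A was 9.23-fold higher at 2 h (4.57 to 18.6, FDR = 4.38e-07) and 5.70-fold higher at 8 h (3.20 to 10.2, FDR = 2.27e-06) over both breeds. The corresponding share of rows higher at FDR < 0.05 was 6.35% at 2 h and 3.13% at 8 h. In Angus alone the folds of IL1A were 11.1 at 2 h (FDR = 0.000122) and 4.41 at 8 h (FDR = 0.000431, or 0.0651 with the quasi-likelihood F test), and in Holstein alone they were 7.68 (FDR = 0.00281) and 6.71 (FDR = 0.00143). Shares of rows higher by that criterion were 3.89% and 0.981% in Angus and 5.21% and 4.09% in Holstein.

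Breeds did not differ detectably in IL1A. Holstein over Angus was 0.880-fold at 2 h (0.312 to 2.48, FDR = 0.897) and 1.95-fold at 8 h (1.07 to 3.57, FDR = 0.125), and the values overlapped at every hour. Without Angus 3 the 8 h difference passed the FDR threshold (log2 1.24, FDR = 0.0377).

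IL1B, the ligand most often measured in innate immune responses, stayed near the floor. Angus 1 to 4 had 11, 12, 14 and 11 counts of IL1B at 0 h, and Holstein 1 to 4 had 4, 5, 0 and 0. At 2 h the Angus libraries held 0, 1, 38 and 11 counts. The highest level in any library was 0.467 CPM, in Angus 3 at 2 h, which is 1 of the libraries of other counting. IL1B passed the CPM filter in none of the 12 comparisons. Without that filter it was 1.57-fold higher at 2 h (0.578 to 4.29, FDR = 0.728) and 1.45-fold higher at 8 h (0.702 to 3.00, FDR = 0.714) than at 0 h over both breeds, so a change over both breeds was not detectable at this depth, and without the libraries of other counting the 2 h value lay on the other side of 0 (log2 -0.19). In Holstein alone, IL1B was higher at 2 h in 4 of 4 animals, by 3.28-fold (1.025 to 10.5, FDR = 0.229), and with the animal as a block this passed the FDR threshold (log2 1.87, SE 0.77, FDR = 0.0496), as did 9.70% of rows with higher levels.

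Levels of IL1B at 0 h did not overlap between the breeds, the Angus libraries lying between 0.106 and 0.151 CPM and those of Holstein between 0 and 0.0732 CPM. The test without the CPM filter gave 0.260-fold in Holstein (0.105 to 0.642, FDR = 0.0304), where 3.67% of rows were lower in Holstein at FDR < 0.05. The call was lost with the quasi-likelihood F test (FDR = 0.199), without the libraries of other counting (0.161), and without any of Angus 1 to 4, Holstein 3 or Holstein 4 (0.0897 to 0.137). At 8 h the values again did not overlap (Angus from 0.121 to 0.242 CPM, Holstein from 0.0200 to 0.120 CPM), with FDR = 0.199.

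IL33, the ligand of IL1RL1, was low and was not shown to change with LPS. It ranged from 0.395 to 0.992 CPM in Angus and from 0.405 to 1.26 CPM in Holstein, and the breeds overlapped at each hour. It passed the CPM filter in Holstein at 8 h only, where it was 1.07-fold the 0 h level (0.704 to 1.63, FDR = 0.900). Without the filter, IL33 over both breeds was 1.01-fold at 2 h (0.698 to 1.47, FDR = 0.991) and 1.15-fold at 8 h (0.823 to 1.60, FDR = 0.796), so increases of the size seen for IL1RL1 lay outside both intervals. These levels and intervals carry the uncertain counting of the IL33 row, which overlaps LOC781462 and an interval without a symbol.

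**Figure D2:**
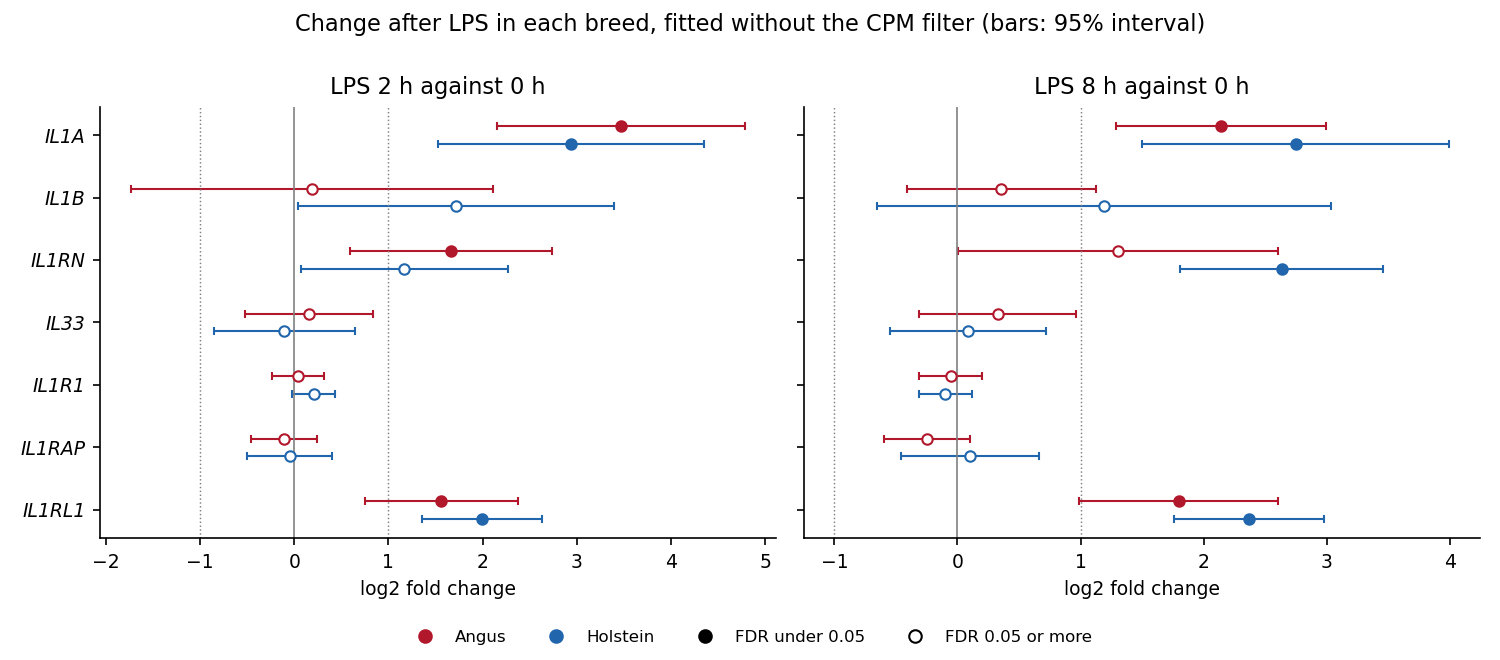
Log2 fold change against 0 h of each member at 2 h and 8 h within each breed, from the fits without the CPM filter, with 95% intervals, 4 animals per group and filled points at FDR < 0.05. IL1A and IL1RL1 are filled at both hours in both breeds, IL1RN is filled in Holstein at 8 h and in Angus at 2 h, and IL1B, IL33, IL1R1 and IL1RAP are open throughout.

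IL1RN, the antagonist of IL1A and IL1B, had the largest fold between the breeds of the 7 members at 8 h, at a low level. At 8 h its level was 0.619, 0.647, 0.9798 and 1.04 CPM in Holstein 1 to 4 (62, 52, 60 and 104 counts) and 0.268, 0.228, 0.0523 and 0.169 CPM in Angus 1 to 4 (21, 17, 5 and 12 counts). The lowest Holstein value at 8 h was thus above the highest Angus value. At 0 h IL1RN was 0.123, 0.103, 0.0432 and 0.0193 CPM in Angus and 0.0599, 0.132, 0.0981 and 0.264 CPM in Holstein, and the breeds overlapped. At 2 h it was 0.347, 0.157, 0.209 and 0.204 CPM in Angus and 0.139, 0.215, 0.314 and 0.539 CPM in Holstein, again with overlap.

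Group means of IL1RN were below 1 CPM throughout, so it passed the CPM filter in no comparison and could not be called differentially expressed. In the fits without that filter it was 4.55-fold higher in Holstein than in Angus at 8 h (2.53 to 8.18, log2 2.18, SE 0.43, FDR = 9.04e-05), where 4.24% of rows were higher in Holstein at FDR < 0.05. The FDR was 3.41e-05 to 0.00229 when each animal was left out in turn and 0.036 with the quasi-likelihood F test. At 0 h Holstein over Angus was 1.86-fold (0.757 to 4.56, FDR = 0.509) and at 2 h 1.32-fold (0.691 to 2.52, FDR = 0.693).

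Against 0 h, IL1RN was higher in 8 of 8 animals at both hours. Over both breeds it was 2.64-fold higher at 2 h (1.52 to 4.57, FDR = 0.00738) and 4.82-fold higher at 8 h (2.32 to 10.0, FDR = 0.00182) without the CPM filter. In Holstein the 8 h increase was 6.19-fold (3.50 to 10.97, FDR = 3.63e-08), and the 2 h difference of 2.25-fold did not pass (FDR = 0.225, or 0.0179 with the animal as a block). In Angus, IL1RN was 3.18-fold higher at 2 h (1.51 to 6.68, FDR = 0.0321), a call lost with the quasi-likelihood F test (FDR = 0.118), without the libraries of other counting (0.141) and without any single Angus animal (0.0549 to 0.210). At 8 h the Angus difference was 2.47-fold (1.00 to 6.08, FDR = 0.480, or 0.0786 with the block). The breed by LPS interaction at 8 h was 1.31 on the log2 scale (SE 0.76, FDR = 1.0, or 1.35 with SE 0.60 and FDR = 0.432 with the block), so the increase itself was not shown to differ between the breeds.

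IL1R1, the signalling receptor of IL1A and IL1B, was higher in Holstein than in Angus cultures at each hour and was not shown to change with LPS. In Angus 1 to 4, IL1R1 was 35.9, 40.4, 34.5 and 34.6 CPM at 0 h, 33.0, 39.9, 42.8 and 34.0 CPM at 2 h, and 34.7, 38.1, 37.6 and 30.3 CPM at 8 h. In Holstein 1 to 4 it was 47.7, 48.0, 44.2 and 53.3 CPM at 0 h, 62.1, 56.4, 46.2 and 58.9 CPM at 2 h, and 47.4, 45.3, 39.1 and 49.5 CPM at 8 h. The breeds did not overlap at any of the 3 hours, the closest values being those of Angus 2 (38.1 CPM) and Holstein 3 (39.1 CPM) at 8 h.

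Holstein over Angus for IL1R1 was 1.33-fold at 0 h (1.14 to 1.55, FDR = 0.00401), 1.49-fold at 2 h (1.23 to 1.801, FDR = 0.000993) and 1.29-fold at 8 h (1.09 to 1.53, FDR = 0.0225). These are below 2-fold, so no member was differentially expressed between the breeds at any hour, against 3.83%, 4.46% and 3.25% of all rows. On FDR alone IL1R1 was the 1 member that passed, and 6.83%, 10.4% and 8.72% of rows were higher in Holstein by that criterion. The 2 h difference passed under every alternative run, and the paper lists IL1R1 as different between the breeds at that hour only. The 0 h difference did not pass without the libraries of other counting, 3 of which are 0 h libraries (log2 0.31, FDR = 0.379), or without TMM scaling (FDR = 0.0562). At 8 h it did not pass without TMM scaling (FDR = 0.0631), without the CPM filter (0.0755), or without Angus 1, Angus 4, Holstein 1, Holstein 2 or Holstein 4 (0.0656 to 0.127).

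The summed level of the 10 keratinocyte markers also stood at other levels in the breeds, Angus libraries ranging from 2.24 to 43.7 CPM and Holstein libraries from 29.7 to 163 CPM. Most of it was DSC3, a desmosomal cadherin, which ranged from 0.493 to 41.6 CPM in the Angus libraries and from 26.9 to 141 CPM in the Holstein ones. The 9 other markers summed to 1.36 to 2.09 CPM in Angus, 1.90 to 2.72 CPM in Holstein 2, 3 and 4, and 19.9 to 24.9 CPM in Holstein 1. Their part in the breed results for IL1R1 and IL1RN was not tested beyond leaving out Holstein 1, where IL1R1 passed at 0 h (FDR = 0.0170) and 2 h (0.0100) and not at 8 h (0.0656), and IL1RN passed at 8 h (0.000178). Of 5 endothelial markers, VWF was differentially expressed between the breeds at 2 h (2.15-fold higher in Holstein, FDR = 0.015) and 8 h (2.49-fold, FDR = 0.00142). The 2 endothelial markers that passed the CPM filter had a median log2 difference of 0.88 at 2 h and 0.89 at 8 h. TEK ranged from 0.523 to 2.72 CPM and PECAM1 from 0.0426 to 1.11 CPM, and CDH5 and KDR reached at most 0.247 and 0.0628 CPM. The endothelial markers summed to 2.08 to 3.33 CPM in Angus libraries and ranged from 2.03 to 5.22 CPM in Holstein ones. The fibroblast markers differed too, FAP being 2.06-fold higher in Holstein at 0 h (FDR = 0.000171) and 2.13-fold at 2 h (FDR = 0.00014), COL3A1 1.89 to 1.93-fold higher over the 3 hours (FDR from 0.00087 to 0.00246), and PDGFRA 0.523 to 0.660-fold (FDR from 9.89e-05 to 0.0146). The part of these markers in the breed results was not tested.

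Against 0 h, IL1R1 over both breeds was 1.099-fold at 2 h (0.896 to 1.35, FDR = 0.632) and 0.947-fold at 8 h (0.7998 to 1.12, FDR = 0.768). With the animal as a block, 2 differences of IL1R1 passed the FDR threshold, both far below 2-fold, the higher level at 2 h in Holstein (log2 0.20, FDR = 0.00764, beside 17.2% of rows higher) and the lower level at 8 h than at 2 h over both breeds (log2 -0.19, FDR = 0.00272, beside 23.6% of rows lower). The interaction of breed and LPS was 0.18 at 2 h (SE 0.17) and -0.05 at 8 h (SE 0.15), each with FDR = 1.0.

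IL1RAP, the accessory chain shared by IL1R1 and IL1RL1, was not shown to differ in any of the 12 comparisons (FDR from 0.356 to 1.0). Group ranges were 3.44 to 4.15, 3.27 to 3.75 and 2.85 to 3.56 CPM in Angus at 0, 2 and 8 h, and 2.82 to 4.76, 2.82 to 4.86 and 2.43 to 5.76 CPM in Holstein. The breeds overlapped at each hour, and at all 3 hours the Holstein values spread on both sides of the Angus values. Against 0 h, IL1RAP over both breeds was 0.947-fold at 2 h (0.791 to 1.14) and 0.960-fold at 8 h (0.759 to 1.21), so a change of 2-fold lay outside both intervals.

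**Figure D3:**
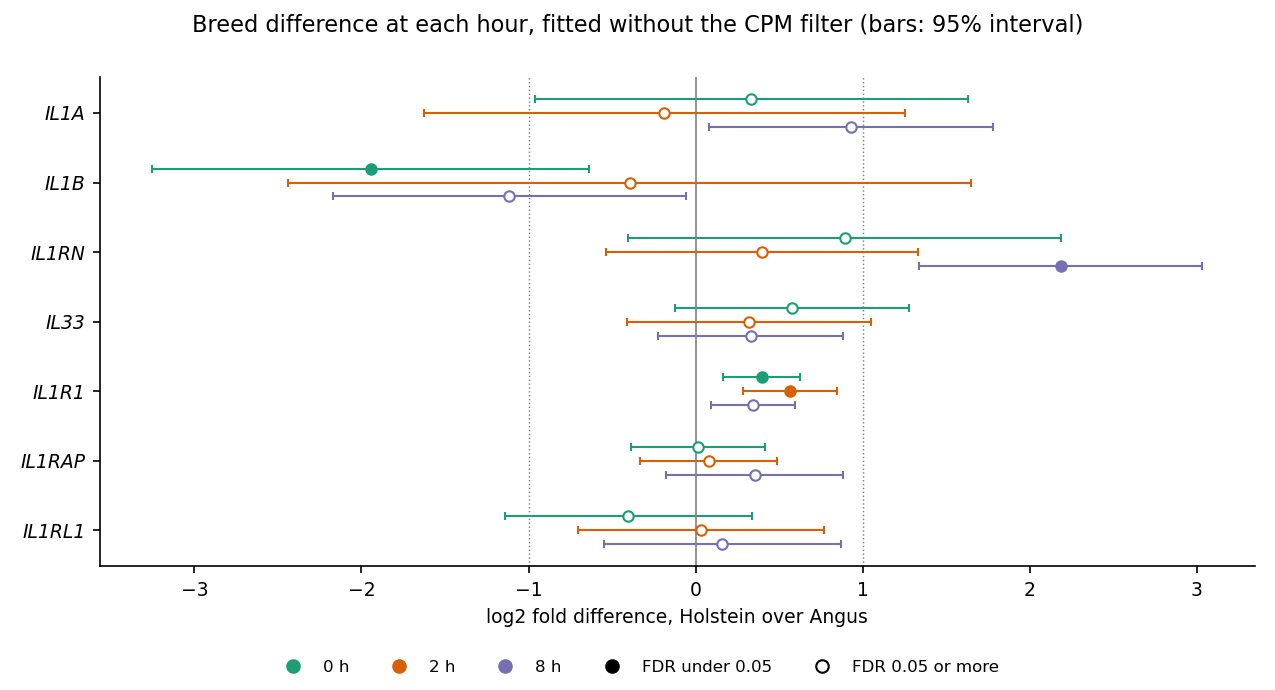
Log2 of Holstein over Angus for each member at 0 h, 2 h and 8 h, from the fits without the CPM filter, with 95% intervals, 4 animals per breed and filled points at FDR < 0.05. IL1R1 lies above 0 at all 3 hours and is filled at 0 h and 2 h, IL1RN is filled at 8 h at a log2 value of 2.18, and IL1B is filled below 0 at 0 h.

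IL1RL1 lies in a cluster of related receptor genes on chromosome 11, and the rows next to it moved with it after LPS. Downstream of IL1RL1, IL18R1, a receptor chain for the family member IL18, at chr11:7153231-7179569, rose 2.26-fold at 2 h (log2 1.18, SE 0.20, FDR = 3.12e-07) and 2.01-fold at 8 h (log2 1.01, SE 0.15, FDR = 2.73e-09) over both breeds. In Angus 1 to 4, IL18R1 was 12.7, 14.5, 9.09 and 9.98 CPM at 0 h and 21.4, 24.95, 40.7 and 14.9 CPM at 2 h. In Holstein 1 to 4 it was 11.96, 12.7, 11.4 and 19.0 CPM at 0 h and 28.4, 34.9, 22.8 and 41.0 CPM at 2 h. Each animal was higher at 2 h and at 8 h than at 0 h, and within each breed the values at 2 h lay above those at 0 h. IL18R1 was not shown to differ between the breeds (FDR from 0.491 to 0.644).

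Intervals without a symbol beside IL1RL1 changed as well. The one between IL1RL1 and IL18R1, chr11:7141606-7153230, rose by 1.22 on the log2 scale at 2 h (FDR = 1.95e-06) and 0.95 at 8 h (FDR = 2.37e-05). Upstream, chr11:7045389-7122685 rose by 0.82 at 2 h (FDR = 0.00119) and 1.02 at 8 h (FDR = 2.88e-06). Beyond IL18R1, chr11:7179570-7197017 rose by 1.25 (FDR = 4.51e-07) and 1.11 (FDR = 9.98e-08). IL1RL2, a receptor chain for the IL36 ligands, which lies farther upstream at chr11:7020020-7045388, had log2 values of 0.57 at 2 h (SE 0.36, FDR = 0.292) and 0.64 at 8 h (SE 0.38, FDR = 0.298), which passed the FDR threshold with the animal as a block (FDR = 0.0228 and 7.12e-05). For these blocked fits of IL1RL2 the share of all rows that passed is not given. At the ends of the window, IL1R1 (0.14 and -0.08) and MFSD9 (-0.24 and -0.06) did not pass.

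**Figure D4:**
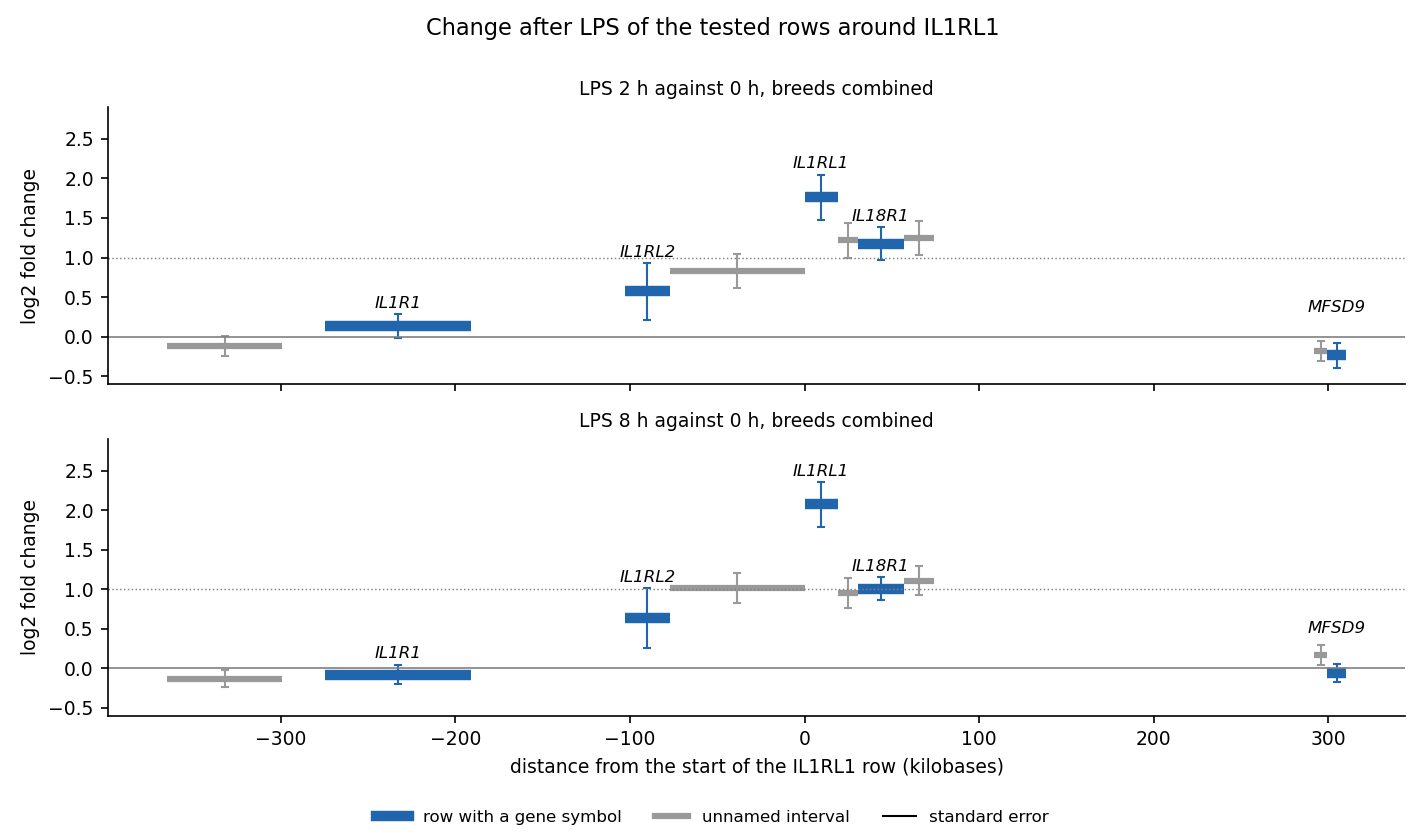
Log2 fold change against 0 h (breeds combined, bars are SE, 8 against 8 libraries) of the tested rows around IL1RL1 at 2 h and 8 h, placed by distance from the start of the IL1RL1 row in kilobases. IL1RL1 has the highest values at both hours (1.76 and 2.07), the rows next to it on both sides lie between 0.82 and 1.25, and IL1R1 and MFSD9 lie near 0.

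Among other ligands and receptors of the family (14 genes in the tables), 7 passed the CPM filter at 2 h over both breeds and IL18R1 was the 1 differentially expressed gene. The median log2 fold change of the 7 was 0.32, beside -0.0039 over all rows. At 8 h it was 0.15 beside -0.0072, again with IL18R1 alone. The decoy receptor IL1R2 had group means of at most 0.111 CPM, IL18RAP of at most 0.342 CPM and IL37 of at most 0.718 CPM, and IL1F10 had no count in any library. IL18BP, a soluble inhibitor of IL18, fell by 0.65 on the log2 scale at 2 h (SE 0.21, FDR = 0.0145).

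IL18, a ligand activated like IL1B by caspase cleavage, was the 1 gene of the related lists that was differentially expressed between the breeds, and lies at chr15:22800425-22826666. At 0 h IL18 was 12.7, 16.0, 12.04 and 8.57 CPM in Angus 1 to 4 and 23.5, 33.1, 24.8 and 23.9 CPM in Holstein 1 to 4, without overlap. Holstein over Angus was 2.14-fold (log2 1.096, SE 0.20, FDR = 9.59e-06) at 0 h, 1.94-fold (FDR = 0.00015) at 2 h and 1.91-fold (FDR = 6.36e-06) at 8 h. Against 0 h, IL18 was not shown to change over both breeds (log2 0.22 at 2 h, FDR = 0.705, and 0.14 at 8 h, FDR = 0.823), and with the animal as a block both differences passed the FDR threshold (1.37e-05 and 0.0193). For these blocked fits of IL18 the share of all rows that passed is not given. The keratinocyte marker values given above for the breeds apply to IL18 too.

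IL36A, named after its values were seen, passed in the blocked fits alone. This ligand of IL1RL2 was at 0.419, 0.117, 2.48 and 3.92 CPM in Holstein 1 to 4 at 0 h and at 1.78, 4.14, 8.51 and 15.9 CPM at 8 h. In Angus 1 to 4 it was at 3.097, 7.70, 2.51 and 3.21 CPM at 0 h and at 8.23, 14.99, 5.43 and 6.32 CPM at 8 h. Each animal was higher at 8 h, while in each breed the ranges at 0 h and 8 h overlapped. The log2 difference over both breeds was 1.48 (SE 0.56, FDR = 0.0696), and 1.79 with the block (SE 0.32, FDR = 1.97e-06). The share of all rows that passed with the block at 8 h is not given.

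Of 15 genes that carry the signal from the receptors, from MYD88 and the IRAK kinases to TRAF6 and the TAB adaptors, 14 passed the CPM filter and none was differentially expressed in any of the 12 comparisons without the block. With the animal as a block, IRAK1BP1, which binds IRAK1, was so in Angus at 2 h (log2 -1.02, SE 0.22, FDR = 2.43e-05). The share of all rows that were so with that block is not given. The median log2 fold change of the 14 genes was 0.0027 at 2 h and -0.033 at 8 h over both breeds. On FDR alone at 2 h, 3 rose and 3 fell, against 10.8% and 11.2% of all rows. PELI1, a ubiquitin ligase acting on IRAK proteins, rose by 0.64 (SE 0.11, FDR = 1.47e-07), TAB2 by 0.32 (FDR = 0.00139) and TRAF6 by 0.25 (FDR = 0.0166). IRAK1BP1 fell by 0.94 (SE 0.19, FDR = 8.13e-06), IRAK2 by 0.44 (SE 0.14, FDR = 0.00896) and IRAK3, an inhibitory member of the kinase family, by 0.29 (FDR = 0.0329). MYD88, the adaptor itself, had group means of 21.5 to 23.8 CPM.

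Of 13 genes for processing and release of the ligands, 8 passed the CPM filter. CASP1, the protease that cleaves IL1B, had group means of at most 0.0715 CPM, and the inflammasome sensors NLRP3 and NLRP1 of at most 0.0771 and 0.0400 CPM. CASP4, a caspase that senses intracellular LPS, at chr15:3474706-3494166, was 25.1, 17.2, 21.4 and 17.2 CPM in Angus 1 to 4 at 0 h and 41.0, 31.0, 45.3 and 28.5 CPM at 8 h. In Holstein 1 to 4 it was 21.6, 20.8, 24.04 and 21.4 CPM at 0 h and 56.9, 72.9, 63.0 and 62.1 CPM at 8 h. The values at 8 h lay above those at 0 h in both breeds, and all Holstein values at 8 h lay above all Angus values at 8 h.

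CASP4 rose 2.37-fold at 8 h over both breeds (log2 1.25, SE 0.18, FDR = 1.36e-09), 2.91-fold in Holstein (FDR = 6.07e-43) and 1.802-fold in Angus (FDR = 0.00164, or 0.0608 with the quasi-likelihood F test). CASP8, a caspase that can also cleave IL1B, rose 2.23-fold in Holstein (log2 1.16, SE 0.13, FDR = 5.28e-17) and 1.39-fold in Angus (FDR = 0.0340, or 0.0873 with the F test) at 8 h. The breed by LPS interaction for 8 h was 0.68 for CASP4 (SE 0.22, FDR = 0.497) and 0.67 for CASP8 (SE 0.19, FDR = 0.138). With the animal as a block both interactions passed the FDR threshold (FDR = 1.55e-05 and 1.28e-05). The share of all rows that passed with that block is not given here. In the unblocked interaction tests 0.278% of rows were differentially expressed at 2 h and 0.0982% at 8 h, and no member or listed gene was among them.

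**Figure D5:**
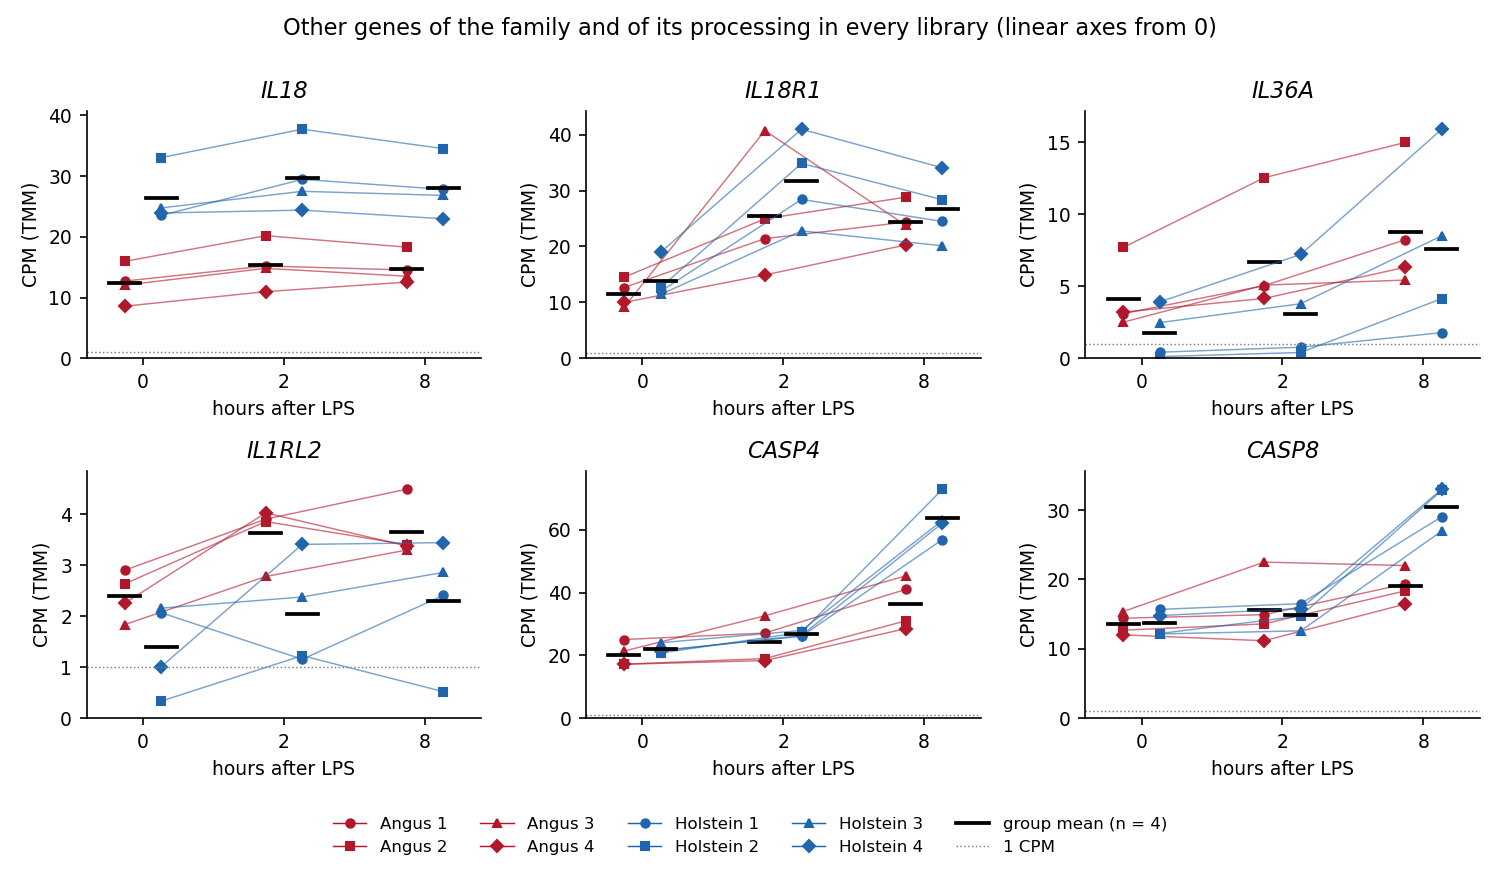
TMM-scaled CPM (linear axes from 0, scaled for each gene) of IL18R1, IL18, IL36A, IL1RL2, CASP4 and CASP8 in all 24 libraries by hour after LPS at equal spacing, with points joined for each animal and a bar for the group mean, Angus in red and Holstein in blue. IL18R1 is higher after LPS in every animal, IL18 is higher in the 4 Holstein than in the 4 Angus cultures at each hour, and CASP4 at 8 h lies at 56.9 to 72.9 CPM in Holstein and 28.5 to 45.3 CPM in Angus.

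Over all 24 libraries, 4 members passed the CPM filter, IL1A with 12 of 24 libraries at 1 CPM before TMM scaling (11 after it), and were set beside the 12957 rows with a symbol that did so. The rows most like IL1RL1 in log2 CPM were TMBIM4 (Pearson's r = 0.923), CALU (0.922) and GCH1 (0.904), and those most like IL1A were NFKB1 (0.867), LOC100335751, a row inside NFKB1 (0.867), and CXCL2 (0.864). Those most like IL1R1 were SLC20A2 (0.911), ISLR2 (0.900) and CD58 (0.898). IL1RAP had lower values, with CCDC3 (0.803), TSTD1 (0.730) and SLC4A4 (0.705). These are descriptions over 24 libraries, 3 from each of 8 animals, which share the breed and the hour.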

How the data were processed

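The authors aligned reads to the bovine build UMD v3.1 with NextGENe and deposited, per library, raw counts per row without normalization, beside the mean coverage of each row. The deposited coverage signal served here as a check on the counting alone. Submitters' processing notes name CASAVA 1.7. Rows span whole genes or the intervals between them, and counts summed to 1.5 to 1.712 times the matched reads, which is possible where a read counts toward several rows.

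Groups and animal numbers came from the sample labels. Levels are CPM (counts scaled to a library of 1000000) after TMM scaling. Each of 12 comparisons was fitted on its own libraries with edgeR 4.0.16 (R 4.3.3), as a generalized linear model with a likelihood-ratio test and no block, on rows with at least 1 CPM (before TMM scaling) in 50% of the libraries compared. P-values were adjusted over all rows by Benjamini-Hochberg (FDR), and intervals are 95%. Alternatives were the quasi-likelihood F test, DESeq2 1.42.0, RLE and total-count scaling, no CPM filter (at least 10 counts), FDR alone, symbol rows alone, leaving out animals or the 4 libraries of other counting, and a replicate block. Those that combine the last 3 or the F test with no CPM filter were chosen after seeing the data. The scripts were tested on simulated data.

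The members, and the lists of related genes and cell type markers, were chosen with earlier results of these data known. Text names all 7 members, listed genes differentially expressed in any comparison (4), and, where a member passed the filter over 24 libraries, the 3 rows with the highest Pearson's r. Other listed genes are named to make counts of few genes readable. Of the lists, IL36B and AIM2 were not analysed here, and GSDME was analysed under its other symbol, DFNA5. The labels give the animal, so libraries of an animal are paired over hours: deviations from group means correlated at 0.572 to 0.625 on average between hours of an animal (lowest pair 0.419). Sequences were not used here. Replicates are cultures of separate animals.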

Additional observations from a re-analysis of the deposited data

Results flagged for a closer look

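Gaps between animals were tested in 78 groups of 4 libraries, for the 7 members and 6 related genes, and chance alone sets apart about 1 group in 20. No group of a member held a library that far from the others. For IL1RL2 in Angus at 2 h, Angus 3 was lowest at 2.78 CPM, against 3.86 to 4.03 CPM in the others. For IL1RL2 in Angus at 8 h, Angus 1 was highest at 4.49 CPM, against 3.30 to 3.40 CPM. For IL36A, Angus 2 was highest at 0 h with 7.70 CPM, against 2.51 to 3.21 CPM, and at 2 h with 12.5 CPM, against 4.15 to 5.08 CPM. For IL18R1 in Holstein at 0 h, Holstein 4 was highest at 19.0 CPM, against 11.4 to 12.7 CPM, and this is 1 of the libraries of other counting. For IL18 in Holstein at 0 h, Holstein 2 was highest at 33.1 CPM, against 23.5 to 24.8 CPM, and this library is likewise 1 of those 4.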

How the results depend on the processing

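No call that passed the FDR threshold, in the reported fit or in the alternative, changed direction. Of 191 recomputed counts of differentially expressed members, 176 stayed within 1.5 times the reported count. Without the CPM filter the count was 2 in place of 1 at 2 h over both breeds, at 8 h over both breeds, in Holstein at 2 h and in Angus at 2 h, IL1A being the added member. Without the libraries of other counting it was 2 at 8 h over both breeds and in Holstein at 2 h, and 0 in Angus at 2 h. The added member was IL1A, which passed the CPM filter there through libraries after LPS alone, as no 0 h library was at 1 CPM. These counts of 2 thus rest partly on the filter. The quasi-likelihood F test gave 0 in Angus at 8 h. On FDR alone it was 1 in place of 0 for Holstein against Angus at each hour. With animals left out in turn the count ran from 1 to 2 at 8 h over both breeds and in Holstein at 2 h, from 0 to 1 in Angus at 2 h, and from 0 to 1 for the breeds at 8 h. Where it reached 2 in these fits, IL1A was again the added member and passed the filter in the same way.

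Of 599 recomputed log2 changes 556, and of 417 without the CPM filter 370, kept their direction and their side of the FDR threshold. The sign changed in 26 and 29 of them, all without passing in either fit. Among these are IL1A between the breeds at 2 h (log2 -0.18, or 0.58 without Angus 3) and, without the CPM filter, IL1B in Angus at 2 h (0.18, or -0.94 with the animal as a block) and between the breeds at 2 h (-0.40, or 1.06 with the number as a block). With the animal as a replicate block IL1RL1 stayed differentially expressed in all 6 comparisons with 0 h (log2 1.56 to 2.35), and the calls of members that this block changed are given beside the results. Where the share of all rows that passed the FDR threshold with this block is given, it was 9.70% to 24.7% in the direction named. Animal numbers do not pair the breeds (correlation -0.102 to -0.0722 on average), and with the number as a block IL1R1 at 8 h (FDR = 0.0959) and IL1B at 0 h (0.0974) no longer passed between the breeds. Group means moved by over 1 SD in 10 of 126 recomputations, all with library sizes from symbol rows alone. Depth limits IL1B and IL1RN most, at 220 and 547 counts over 24 libraries. Where a cause of a lost call is not named, the cause was not tested.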

Other observations

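Around IL1A and IL1B, the differentially expressed rows at 2 h among those that passed the CPM filter, which IL1A, IL1B and IL1RN did not, were a gene outside the family and the interval next to it. SLC20A1, a phosphate transporter gene at chr11:46218716-46232124, rose by 1.21 on the log2 scale at 2 h over both breeds (SE 0.15, FDR = 6.38e-14), and the interval next to it, chr11:46232125-46296337, by 1.20 (FDR = 4.20e-11). At 8 h the values of SLC20A1 and that interval against 0 h were 0.28 (FDR = 0.137) and 0.32 (FDR = 0.129), and both were lower than at 2 h (log2 -0.93, FDR = 1.58e-14, and -0.87, FDR = 2.77e-11). CKAP2L, a mitotic spindle gene that lies nearest to IL1A at chr11:46318615-46340841, had a log2 value of -0.38 at 2 h (SE 0.36, FDR = 0.546), and with the animal as a block FDR = 1.59e-14. For that blocked fit the share of all rows that passed is not given. Of 34 rows in that region 9 passed the CPM filter at 2 h, 2 were differentially expressed, and the median log2 change of the 9 was 0.17, beside -0.0039 over all rows.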
